A study of Mus musculus with 6 samples.

Results

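The genes described here are 46 mouse genes known to be imprinted or to lie in imprinted domains, Rasgrf1 among them. They were taken by symbol from the 44679 genes quantified in each library, through the GENCODE vM21 annotation of GRCm38, and all 46 were found. Rasgrf1 was chosen by its reads in these libraries, which differed between the treated and untreated tumours, so its values are given as a description with no test. The other 45 were listed for being imprinted, by a list drawn up with earlier results of these data known.

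An imprinted gene is transcribed mainly from the copy inherited from 1 parent, because DNA methylation laid down in the egg or sperm marks a control region near it. Such genes lie in clusters, which often pair protein-coding genes with a long noncoding RNA, and many of them act in fetal growth, the placenta and the brain. Rasgrf1 encodes an exchange factor that loads RAS proteins with GTP. In mice it is expressed from the paternal copy in brain, where a methylated region upstream of the gene controls it. These reads carry no information on parental origin, so the values below are total levels over both copies.

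The samples were 6 skin tumours grown from B16F10, a mouse melanoma cell line that makes pigment. Of these, 3 came from mice with no treatment and 3 from mice treated in vivo with vorinostat, which blocks histone deacetylases and so leaves histones more acetylated. Both groups share the tumour line. The sources used here do not give the dose, the duration, or the strain, age and genotype of the mice, nor whether each tumour came from a different mouse, so p-values measure only the spread between these 6 samples. RNA was extracted from pellets of tumour cells, and total RNA was sequenced, so the tumour line and host cells were read together.

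The promoters of the 4 members that the comparison turns on most are shown to let their CpG content be seen, since methylation of CpGs is the mark that imprinting uses. They were taken as promoters and not as imprinting control regions, and the control region of Rasgrf1 is not shown. Each is the 250 bases before the RefSeq transcription start on the GRCm38.p6 build, read 5′ to 3′ on the plus strand, which is the strand of all 4 genes. Capitals mark CpG dinucleotides. Rasgrf1 lies at chr9:89909525-89909774, Dlk1 at chr12:109452573-109452822, Meg3 at chr12:109540746-109540995 and Plagl1 at chr10:13090582-13090831.
Rasgrf1: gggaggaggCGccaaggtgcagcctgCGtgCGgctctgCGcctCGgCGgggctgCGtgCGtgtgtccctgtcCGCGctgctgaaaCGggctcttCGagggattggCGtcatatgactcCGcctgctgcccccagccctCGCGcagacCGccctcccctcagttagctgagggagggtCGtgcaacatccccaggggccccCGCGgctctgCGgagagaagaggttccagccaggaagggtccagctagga
Dlk1: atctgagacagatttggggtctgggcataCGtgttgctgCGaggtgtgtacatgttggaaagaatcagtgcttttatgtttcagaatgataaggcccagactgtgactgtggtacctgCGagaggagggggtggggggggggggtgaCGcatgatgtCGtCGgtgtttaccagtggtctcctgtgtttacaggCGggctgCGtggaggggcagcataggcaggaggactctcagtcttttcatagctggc
Meg3: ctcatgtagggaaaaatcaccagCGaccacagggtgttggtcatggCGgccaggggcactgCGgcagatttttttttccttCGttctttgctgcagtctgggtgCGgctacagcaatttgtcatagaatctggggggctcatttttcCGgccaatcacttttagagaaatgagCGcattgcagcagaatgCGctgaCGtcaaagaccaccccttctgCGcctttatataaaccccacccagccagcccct
Plagl1: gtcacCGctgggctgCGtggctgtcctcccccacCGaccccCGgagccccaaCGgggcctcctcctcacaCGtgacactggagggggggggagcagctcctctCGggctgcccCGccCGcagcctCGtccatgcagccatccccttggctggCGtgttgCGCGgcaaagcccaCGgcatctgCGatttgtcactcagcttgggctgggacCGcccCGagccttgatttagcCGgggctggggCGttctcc
The Rasgrf1 window held 21 CpGs and the Plagl1 window 19, against 10 for Meg3 and 8 for Dlk1. A further RefSeq window of Meg3, at chr12:109545148-109545397 and not printed, held 0 CpGs. Over all 32851 RefSeq windows of this length the median was 6. The libraries hold no methylation data, so the state of these CpGs is not known here.

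Before the members, 2 libraries need mention. Reads assigned to genes ran from 11.3 M to 28.9 M per library. Untreated tumour 3 had 55.9% of its reads in the mitochondrial ribosomal RNAs and 10.3% in protein-coding genes, against 13.3% to 25.3% and 29.1% to 46.4% in the other 5. In vorinostat tumour 3 the summed level of 1472 chemoreceptor genes, which few tissues express, was 216 CPM (reads scaled to a common library size of 1 M by the TMM method), against 36.2 to 71.9 in the untreated tumours and 59.7 and 58.5 in the other vorinostat tumours. Reads in these genes serve below as a measure of background. Over all 14776 genes that passed the filter on low counts, 0 were called at an adjusted p under 0.05 by edgeR's quasi-likelihood test with Benjamini-Hochberg adjustment, which is 0% of the genes tested. At an unadjusted p under 0.05 there were 927, or 6.27%. DESeq2 called 11 genes and limma-voom 0.

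Rasgrf1 (ENSMUSG00000032356, chr9:89909908-90026977) was nearly silent in the untreated tumours and present at 1.23 to 3.23 CPM in the vorinostat tumours. Untreated tumours 1, 2 and 3 held 3, 6 and 1 reads of the gene, and vorinostat tumours 1, 2 and 3 held 31, 35 and 36. As TMM-scaled CPM these were 0.114, 0.335 and 0.0951 against 1.23, 1.61 and 3.23, or 0.181 ± 0.133 (SD, n = 3) against 2.02 ± 1.06 (SD, n = 3). The groups did not overlap, and the lowest vorinostat library stood well above the highest untreated one. The limit of detection was set at 3 reads, which came to 0.114, 0.167 and 0.285 CPM in untreated tumours 1, 2 and 3, so tumours 1 and 3 were at or under it.

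Summed over libraries, 102 reads stood against 10, a ratio of 9.58 after scaling. The ratio pools reads over tumours and the gene was chosen for this difference, so it is a description only. The deposited TPM values averaged 0.323 against 0.0299. Vorinostat tumour 3 had the highest CPM, and without it the ratio was 7.67. Leaving out any 1 library gave ratios from 7.13 to 16.1, and leaving out untreated tumour 3 and vorinostat tumour 3 together gave 6.88.

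The background in chemoreceptor genes moved in the same direction, so it is given beside the gene. At the chemoreceptor level per kilobase of the same library, a gene of Rasgrf1's length would have drawn 3.30, 2.16 and 1.60 reads in untreated tumours 1, 2 and 3, while vorinostat tumours 1, 2 and 3 would have drawn 4.72, 3.86 and 7.61. The observed reads were near this level in untreated tumours 1 and 3, above it in untreated tumour 2, and several times higher in each vorinostat tumour. In sum, the vorinostat group held 102 reads against 16.2 at the background level. The untreated group held 10 reads against 7.06 at the background level. As the gene was chosen by these reads, this is a description, and what part of them was background was not tested. No other annotated gene overlaps Rasgrf1.

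**Figure D1:**
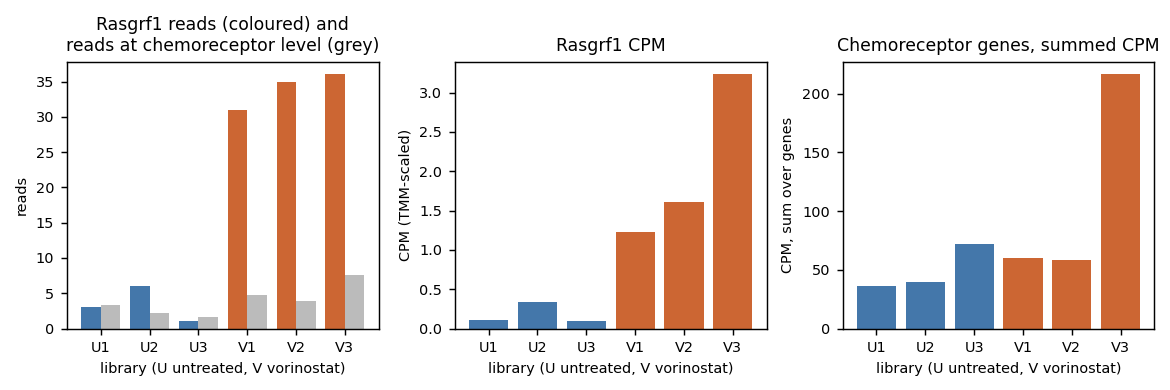
Rasgrf1 by library (U untreated, V vorinostat, numbered by tumour). Left, reads of the gene (coloured bars) beside the reads that the chemoreceptor level of the same library would give a gene of its length (grey). Middle, its TMM-scaled CPM. Right, the summed CPM of 1472 chemoreceptor genes. The 3 vorinostat tumours held 31 to 36 reads and the untreated ones 1 to 6, and the chemoreceptor sum was highest, at 216 CPM, in vorinostat tumour 3.

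The better expressed genes around Rasgrf1 overlapped between the groups. Within 500 kb on either side, 23 genes are annotated, 19 are in the files and 5 passed the filter, of which 0 were called by edgeR and 0 had an unadjusted p under 0.05. The neighbours with a mean of 1 CPM or more were 4. Morf4l1, a chromatin protein of histone acetyltransferase complexes, had 84.7 ± 7.20 CPM in untreated and 87.6 ± 7.54 in vorinostat tumours (SD, n = 3 each). Tmed3, a cargo protein of the early secretory pathway, had 14.8 ± 1.18 against 13.3 ± 3.08 CPM, and the lysosomal protease Ctsh had 10.04 ± 4.13 against 7.98 ± 1.06 CPM. Tbc1d2b had 13.2 ± 0.801 against 14.2 ± 0.890 CPM.

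Upstream, the noncoding gene 4930524O08Rik, which ends 45880 bases before Rasgrf1, held 0 reads in each untreated tumour and 9, 1 and 1 in vorinostat tumours 1, 2 and 3. Of these, 1 library exceeded the limit of 3 reads. Among coding neighbours of low level, Minar1, 286783 bases away upstream, held 1, 2 and 4 reads in the untreated and 9, 6 and 16 in the vorinostat tumours. Ankrd34c, also upstream, held 4, 9 and 0 against 2, 3 and 8, and Adamts7, downstream, 19, 22 and 5 against 28, 17 and 18. These reads are not scaled for library size. As CPM the groups of Minar1 overlapped, with untreated tumour 3 above vorinostat tumours 1 and 2. The microRNA gene Mir184 held 0 reads in all 6 libraries, though short RNAs are poorly captured by such libraries. The related exchange factor Rasgrf2, on another chromosome, had 0.353 ± 0.210 CPM in untreated and 0.686 ± 0.197 in vorinostat tumours (SD, n = 3 each), and these ranges overlapped.

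**Figure D2:**
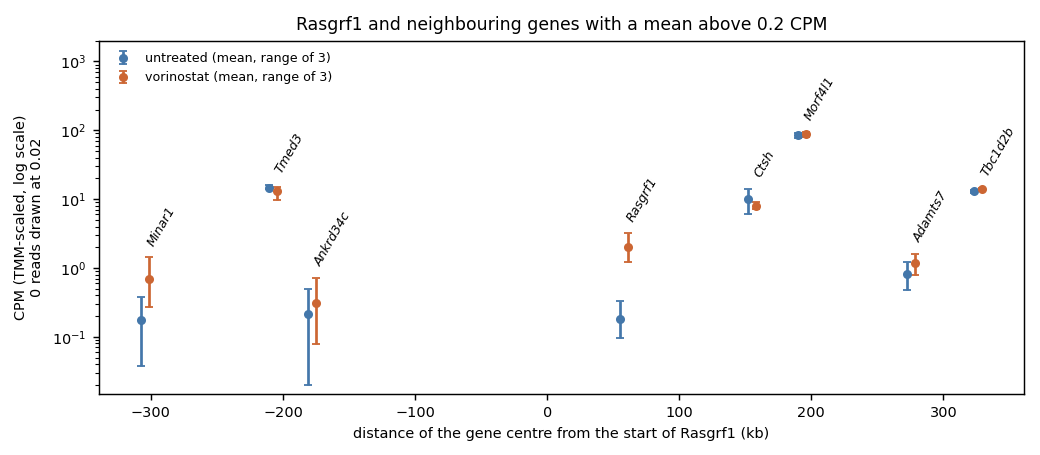
Rasgrf1 and its neighbours with a mean above 0.2 CPM, placed by the distance of the gene centre from the start of Rasgrf1 in kb (horizontal axis), with TMM-scaled CPM on a log axis. Points are group means and bars the range of 3 libraries; 0 reads are drawn at 0.02. The ranges of Rasgrf1 lie apart, and those of Morf4l1, Tmed3, Ctsh and Tbc1d2b overlap.

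The 46 members spanned from no reads at all to 348 CPM. By the limits used here, 2 were silent, with 3 reads or fewer in every library, 26 were expressed, with a mean of 1 CPM or more over the 6 libraries, and 18 were low. Rasgrf1 counted as expressed, at a mean of 1.10 CPM, only through the vorinostat tumours. Grb10 at a mean of 1.04 CPM was the closest above that line and Nespas at 0.897 CPM the closest below it. With 1 TPM as the line, 16 were expressed.

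The silent pair was Snrpn and Snurf, which share a paternally expressed transcript in the region that is lost in Prader-Willi syndrome. Snrpn, a splicing protein of neurons, held 0, 2 and 2 reads in untreated tumours 1, 2 and 3 and 0 in each vorinostat tumour. Snurf held 0 in all 6, which allows up to 0.285 CPM in untreated tumour 3 and 0.269 in vorinostat tumour 3. These had the smallest library size of their group after TMM scaling. An annotated gene that shares their exons, Gm38393, held 0, 1 and 0 reads against 0, 0 and 2. The other members of that region known as paternally expressed were low. Ndn, which restrains growth in neurons, had 0 to 3 reads in the untreated and 0 to 5 in the vorinostat tumours. Magel2, a ubiquitin ligase regulator, had 0.475 ± 0.361 against 1.03 ± 1.06 CPM and Mkrn3, a brake on puberty, 0.510 ± 0.724 against 1.13 ± 0.330 CPM (SD, n = 3 each). In contrast Ube3a, the ubiquitin ligase of Angelman syndrome, was at 44.0 ± 7.46 against 39.1 ± 1.14 CPM. Snhg14, a paternally expressed noncoding RNA antisense to Ube3a that is no member and was named after its values were seen, had 5.11, 3.07 and 9.23 CPM in the untreated and 6.18, 4.50 and 17.1 in the vorinostat tumours, and its groups overlapped.

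For 6 members the reads pooled over all libraries were under 2 times what the chemoreceptor level would give a gene of their length. These were Snurf, Snrpn at 0.391 times, Usp29 at 0.869, Ndn at 1.22, Calcr at 1.62 and Kcnk9 at 1.96. The reads of Snurf, Snrpn and Usp29 were under that level itself. For 15 members the reads were 2 to 10 times background, Rasgrf1 at 4.82 among them, and for 25 they were 10 times or more, up to 4616 times for Gnas.

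**Figure D3:**
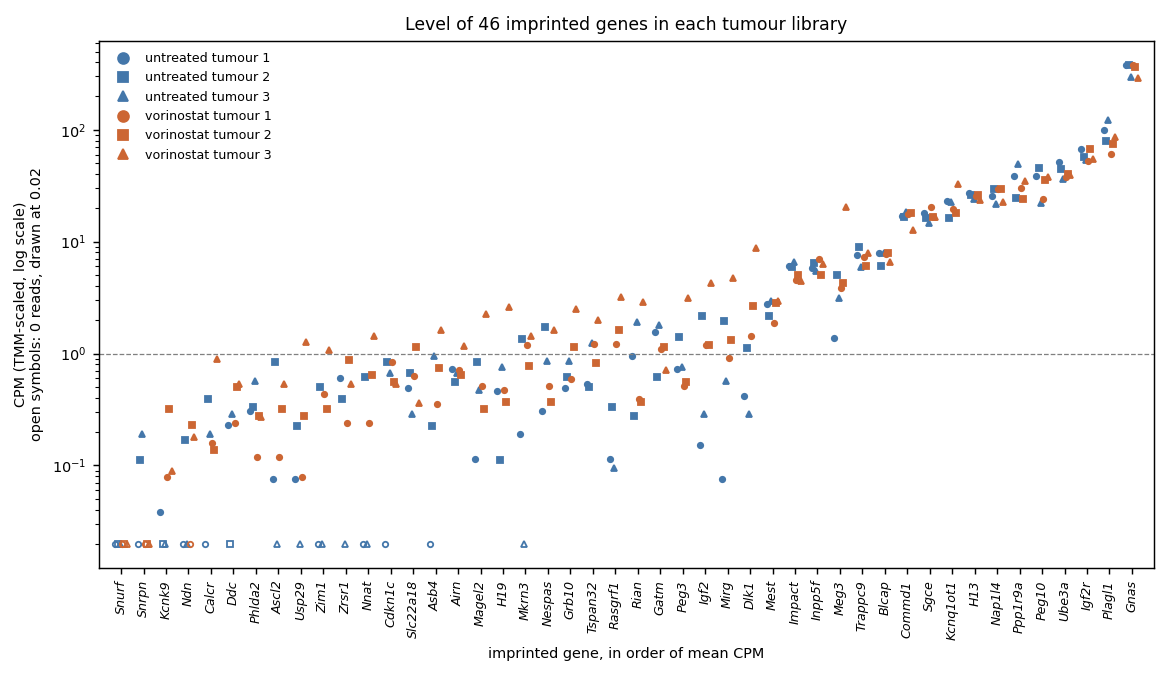
TMM-scaled CPM (log axis) of the 46 imprinted genes in each of the 6 libraries, in order of mean CPM. Blue symbols are untreated and orange vorinostat tumours, the shape gives the tumour number, open symbols drawn at 0.02 had 0 reads, and the dashed line marks 1 CPM. Gnas lies highest, at 290.0 to 381 CPM, and among the genes under 5 CPM the triangle of vorinostat tumour 3 is often the highest point.

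Compared per kilobase of effective length, Gnas, the stimulatory G protein subunit of cyclic AMP signalling, stood highest at 233 ± 29.4 CPM per kb (SD over 6 libraries). It was followed by the zinc finger factor Plagl1 at 24.3 ± 4.78, the copper-handling protein Commd1 at 18.1 ± 5.11, the histone chaperone Nap1l4 at 13.0 ± 1.87, Sgce at 11.8 ± 1.28 and the signal peptide peptidase H13 at 11.7 ± 1.10 CPM per kb. Gnas differed from Plagl1 beyond its spread. Neighbours in this order from Nap1l4 to Sgce and from Sgce to H13 lay within 1 SD of each other, and Plagl1 and Commd1, like Commd1 and Nap1l4, overlapped within their spreads. The noncoding RNA Kcnq1ot1, 84395 bases long in the files, had 22.0 CPM but 0.262 CPM per kb.

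Of the 33 tested members other than Rasgrf1, 0 differed between the groups at an adjusted p under 0.05 by edgeR, beside 0% of all genes, and limma-voom and DESeq2 also called 0 of them. At an unadjusted p under 0.05 there were 3, Dlk1 and Meg3 with higher and Plagl1 with lower values in the vorinostat tumours, beside 6.27% of all genes. Vorinostat values all lay above the untreated ones for 1 of the 33, Dlk1, where 6.53% of all genes did so, and all below for 1, Impact, where 5.53% did so. The median log2 fold change of the 33 was 0.13, against 0.03 over all genes tested.

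Level and error went together among them. The 16 members with a mean of 5 CPM or more had log2 fold changes from -0.45 to 1.53 with a median of -0.04 and standard errors of 0.13 to 0.63. The 17 tested members under 5 CPM, Rasgrf1 left out, ran from -0.40 to 2.75 with a median of 0.60 and standard errors of 0.37 to 1.34. Vorinostat tumour 3, the library with the highest chemoreceptor level, had the highest value for 19 of the 30 members under 5 CPM, Rasgrf1 included, and for 2 of the 16 at or above it. Counting tested genes alone, it had the highest value for 13 of 18 members under 5 CPM and for 56.7% of all genes under 5 CPM. What part the background of that library had in these values was not tested.

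**Figure D4:**
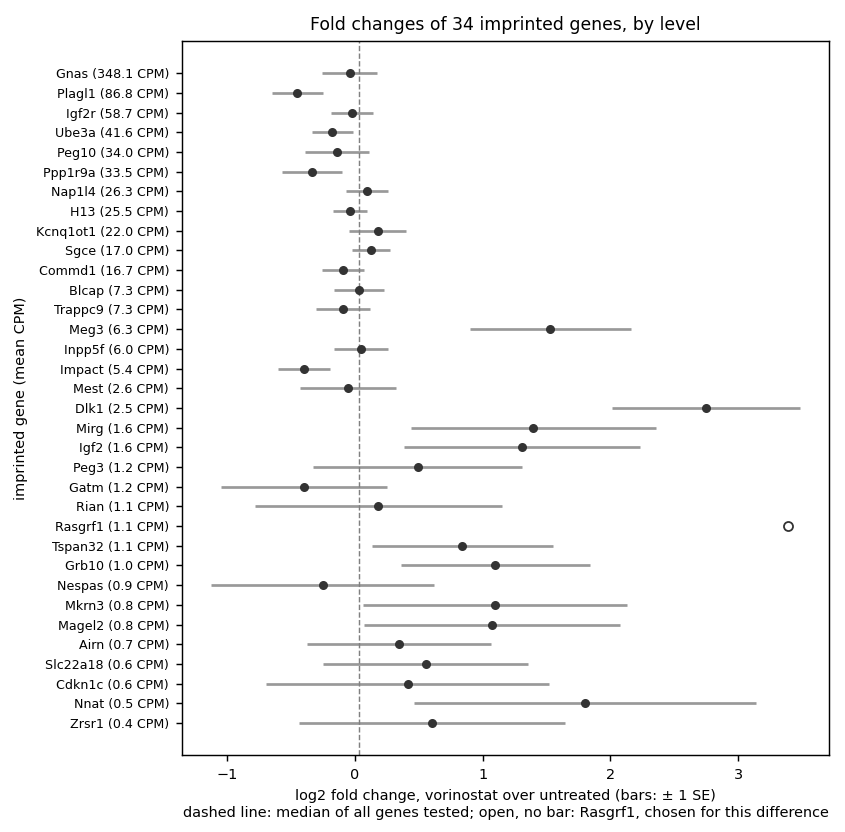
Log2 fold change (vorinostat over untreated, edgeR) of 34 imprinted genes that passed the filter, in order of mean CPM, with bars of 1 standard error. The dashed line is the median of all genes tested, 0.03, and the open symbol without a bar is Rasgrf1, which was chosen for this difference. Genes at the top, of high level, lie near the line except Plagl1, Ppp1r9a and Impact to its left and Meg3 to its right, and the bars lengthen toward the low genes.

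Dlk1 (ENSMUSG00000040856, chr12:109452823-109463336) encodes a transmembrane relative of the Notch ligands that holds back differentiation, in fat precursors among others, and is expressed from the paternal copy. Its CPM was 0.420, 1.12 and 0.285 in the untreated tumours, in order, and 1.43, 2.67 and 8.79 in those given vorinostat, from 11, 20 and 3 reads against 36, 58 and 98. The groups did not overlap, but untreated tumour 2 and vorinostat tumour 1 lay close, and vorinostat tumour 3 was far above the rest. The log2 fold change was 2.75 (SE 0.73, edgeR adjusted p = 0.743), with values from 0.45 to 3.45 and adjusted p from 0.000625 to 0.9999 over the other settings. It passed the threshold with no filter on low counts (0.000625) and without untreated tumour 2 (0.0487). The first of these settings called 156 of 33106 genes and the second 121 of 16438. Without vorinostat tumour 3 the log2 fold change was 1.71, and with untreated tumour 3 also left out it was 1.45. The lowest value, 0.45, was on the log2(TPM + 1) scale. The length assigned to Dlk1 varied between libraries, from 1091 to 3281 bases, and with an offset for effective length the log2 fold change was 2.06.

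Meg3 (ENSMUSG00000021268, chr12:109541001-109571726) is the maternally expressed noncoding RNA of the same region. Its CPM was 1.37, 5.07 and 3.14 in the untreated and 3.84, 4.23 and 20.2 in the vorinostat tumours. Vorinostat tumours 1 and 2 lay within the untreated range, and only tumour 3 lay above it. The log2 fold change was 1.53 (SE 0.63, edgeR adjusted p = 0.743) and fell to 0.35 without vorinostat tumour 3. With no filter on low counts the adjusted p was 0.000644, and the adjusted p ran up to 0.9999 over the other settings. The transcript length that the files assign to the gene varied between libraries, from 1927 to 7169 bases, and with an offset for effective length the log2 fold change was 0.62.

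The 2 further maternal noncoding RNAs of the region overlapped between groups. Mirg, a host of microRNAs, had 0.0763, 1.95 and 0.571 CPM in the untreated and 0.911, 1.33 and 4.75 in the vorinostat tumours, a log2 fold change of 1.40 (SE 0.96) that was 0.38 without vorinostat tumour 3, 0.75 without untreated tumour 1 and 2.99 without untreated tumour 2. Rian, a host of small nucleolar RNAs, had 0.954, 0.279 and 1.90 against 0.396, 0.368 and 2.87 CPM. The neighbouring Rtl1, a placental gene derived from a retrotransposon, had 0.534, 1.67 and 0.761 against 2.65, 1.65 and 5.02 CPM, Begain 0.458, 2.73 and 0.381 against 1.46, 1.10 and 5.65, and the thyroid hormone deiodinase Dio3 0.267, 1.004 and 0.761 against 0.673, 0.368 and 2.06. Vorinostat tumour 3 had the highest value for all 7 genes of the region.

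**Figure D5:**
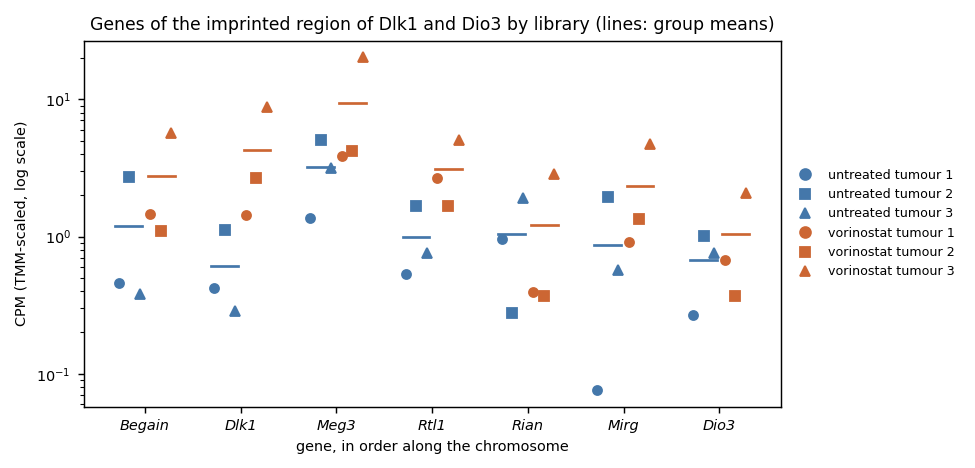
TMM-scaled CPM (log axis) in each library of 7 genes of the imprinted region of Dlk1 and Dio3, in order along the chromosome. Lines are group means and the shape gives the tumour number. The orange triangle, vorinostat tumour 3, is the highest point for each gene, at 8.79 CPM for Dlk1 and 20.2 CPM for Meg3.

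Cell types that can express Dlk1 or differ between tumours were read through marker lists. Summed over 10 markers, the adipocyte list stood at 4.998, 6.36 and 9.61 CPM in the untreated and 6.85, 6.16 and 14.2 CPM in the vorinostat tumours. The groups of 2 of its 10 markers were apart on the higher side and those of 1 on the lower side, and Cfd had 3 reads or fewer in every library. Of the 5 tested, 1 was apart on the higher side and 0 on the lower, where 6.53% and 5.53% of all genes tested were. The chromaffin and neuroendocrine list stood at 1.45, 4.01 and 1.52 against 4.08, 2.85 and 9.78 CPM, with 1 of 10 markers apart, which was not among the 4 tested. The pericyte and smooth muscle list stood at 14.96 to 17.3 against 15.5 to 27.5 CPM and the endothelial list at 9.69 to 21.5 against 16.9, 15.3 and 32.6 CPM, with 0 of 10 apart in each. The skeletal muscle list stood at 8.05 to 14.6 against 7.95 to 24.8 CPM with 0 of 10 apart and Tnnt3 and Tnnc2 at 3 reads or fewer, and the keratinocyte list at 3.40 to 6.64 against 3.40 to 10.1 CPM with 0 of 10 apart. Of the 6 endothelial markers tested, Vwf, with a higher vorinostat mean, had an unadjusted p under 0.05 by edgeR (16.7%, beside 6.27% of all genes). Median log2 fold changes of tested markers were 0.76 for adipocyte, 0.92 for chromaffin and neuroendocrine, and 0.305 for pericyte and smooth muscle. They were 0.51 for endothelial, 0.53 for skeletal muscle and 0.65 for keratinocyte markers, against 0.03 over all genes tested. That 0.03 is over genes of every level, and no median of genes matched in level was taken. Of tested genes under 5 CPM, 56.7% were highest in vorinostat tumour 3, against 32.2% of all genes tested. Vorinostat tumour 3 was the highest library in all 6 of these lists and in the neuron and glia list below, as it was for the chemoreceptor genes. It was not the highest in the melanocyte, fibroblast and leukocyte lists below. What part these cell types had in the values of Dlk1 and Meg3 was not tested. In bulk tumours fewer cells of a type and less RNA per cell cannot be told apart.

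The tumour label was checked on its markers. The 10 melanocyte markers, such as Pmel, Tyr and Mlana, summed to 6437 to 8206 CPM in the untreated and 6465 to 8796 in the vorinostat tumours, with 1 of 10, Kit, apart on the lower side. Among all genes tested, 5.53% were apart on that side. The median log2 fold change of the melanocyte markers was 0.04, with 0 at an unadjusted p under 0.05 by edgeR. Fibroblast markers summed to 20.7 to 38.4 against 13.9 to 23.1 CPM and leukocyte markers to 58.5 to 183 against 84.8 to 96.9 CPM, with 0 of 10 apart in both. Of the 9 fibroblast markers tested, Col1a2 and Col3a1 had an unadjusted p under 0.05 by edgeR (22.2%, beside 6.27% of all genes). Both had lower means under vorinostat, and the median log2 fold change of the 9 was -0.86. All 10 leukocyte markers had log2 fold changes under 0, with a median of -0.41. Of these 10, 1 had an unadjusted p under 0.05, beside 6.27% of all genes. The neuron and glia list stood at 118 to 180.1 against 165 to 190 CPM, with 1 of 10 apart on the higher side. That marker was not among the 5 tested, and 6.53% of all genes tested were apart on that side. The median log2 fold change of the 5 was 0.17, with 0 at an unadjusted p under 0.05.

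Plagl1 (ENSMUSG00000019817, chr10:13060504-13131694) encodes a paternally expressed zinc finger factor that restrains the cell cycle and acts in fetal growth. Its CPM was 100.3, 79.3 and 121 in the untreated tumours, in order, and 60.4, 74.1 and 85.7 in those given vorinostat, or 100.2 ± 20.9 against 73.4 ± 12.7 (SD, n = 3 each). The groups overlapped, since vorinostat tumour 3 lay above untreated tumour 2. The log2 fold change was -0.45 (SE 0.20, edgeR adjusted p = 0.743, from 0.175 to 0.9999 over the other settings).

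Impact (ENSMUSG00000024423, chromosome 18), a paternally expressed inhibitor of the translation-stress kinase Gcn2, had 6.10, 5.91 and 6.56 CPM in the untreated and 4.55, 5.01 and 4.48 in the vorinostat tumours. The means were 6.19 ± 0.336 and 4.68 ± 0.285 (SD, n = 3 each), and the groups did not overlap. It was not called, with a log2 fold change of -0.40, a standard error of 0.21 and an edgeR adjusted p of 0.743. The other settings gave -0.68 to -0.23, with adjusted p from 0.415 to 0.9999.

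The growth factor gene Igf2 and the noncoding H19, which share enhancers and are expressed from opposite parental copies, were both scarce. Igf2 had 0.153, 2.17 and 0.285 CPM in the untreated and 1.19, 1.19 and 4.31 in the vorinostat tumours, with a log2 fold change of 1.31 (SE 0.93) that was 0.44 without vorinostat tumour 3, 0.72 without untreated tumour 1 and 3.35 without untreated tumour 2. The length assigned to Igf2 ran from 852 to 4722 bases, and with an offset for effective length its log2 fold change was 0.69. H19 held 12, 2 and 8 reads against 12, 8 and 29 and did not pass the filter. Untreated tumour 2 and vorinostat tumour 3 set the upper end of Igf2 in their groups, and the groups overlapped for both genes. Igf2r, the maternal receptor that clears Igf2, was at 59.2 ± 6.61 against 58.2 ± 8.24 CPM (SD, n = 3 each), while Airn, the antisense noncoding RNA that silences its paternal copy, was at 0.649 ± 0.0848 against 0.841 ± 0.284 CPM. The annotated exons of Airn and Igf2r share 0 bases.

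In the Kcnq1ot1 domain, the noncoding RNA Kcnq1ot1 itself had 22.9, 16.3 and 22.5 CPM in the untreated and 19.8, 18.2 and 32.5 in the vorinostat tumours. Its reads were 7.21 times the chemoreceptor background in the untreated and 3.71 times in the vorinostat tumours. In vorinostat tumour 3 it held 362 reads, where a gene of its length would have drawn 157 at the background level. The log2 fold change was 0.18 and turned to -0.12 without vorinostat tumour 3. Of the other members in this domain, Nap1l4 was at 25.5 ± 3.82 against 27.2 ± 4.09 CPM (SD, n = 3 each), and the rest were near or under 1 CPM. The cell cycle inhibitor Cdkn1c had 0.501 ± 0.442 against 0.640 ± 0.166 CPM, the transporter Slc22a18 0.483 ± 0.192 against 0.714 ± 0.401, the trophoblast factor Ascl2 0.304 ± 0.462 against 0.326 ± 0.210, and Tspan32, a tetraspanin of blood cells, 0.758 ± 0.415 against 1.34 ± 0.582. Phlda2, a brake on placental growth, held 8, 6 and 6 reads against 3, 6 and 3. Its vorinostat CPM lay below the untreated range, as for 5.53% of all genes tested, but it did not pass the filter. Among genes of the same part of chromosome 7 that are no members, named after their values were seen, Cd81 averaged 104 CPM over the 6 libraries, Dhcr7 29.1, Tssc4 5.996 and Osbpl5 4.09, and the groups of each overlapped.

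The cluster of Peg10 on chromosome 6 held members of very different level. Peg10, a retrotransposon-derived gene that placenta formation needs, had 38.7, 45.6 and 22.2 CPM in the untreated and 24.0, 35.6 and 37.8 in the vorinostat tumours, with a log2 fold change of -0.14 whose sign turned without untreated tumour 2 or without vorinostat tumour 1. Its neighbour Sgce, a sarcoglycan, had 17.9, 16.2 and 14.7 against 20.2, 16.6 and 16.6 CPM, and Ppp1r9a, an actin-binding neuronal protein, 38.7, 24.5 and 48.9 against 30.3, 23.8 and 34.6 CPM. The maternally expressed Asb4 held 0, 4 and 10 reads against 9, 16 and 18, and the calcitonin receptor Calcr 0, 7 and 2 against 4, 3 and 10. The groups overlapped for each of these 5 genes.

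In the Peg3 cluster on chromosome 7, the zinc finger gene Peg3 had 0.725, 1.39 and 0.761 CPM in the untreated and 0.515, 0.551 and 3.14 in the vorinostat tumours. The 2 lowest and the highest of these values were all from vorinostat tumours. Usp29 held 2, 4 and 0 reads against 2, 6 and 14, and Zim1 0, 9 and 0 against 11, 7 and 12. Neither passed the filter, and the groups of both overlapped.

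The signalling adaptor Grb10, which dampens insulin receptor signalling, had 0.496, 0.613 and 0.856 CPM in the untreated and 0.594, 1.15 and 2.51 in the vorinostat tumours, with a log2 fold change of 1.10. It was 0.43 without vorinostat tumour 3 and -0.11, relative to the median of all genes, on the log2(TPM + 1) scale. The length that the files assign to Grb10 ran from 1134 to 4514 bases, and with an offset for effective length the log2 fold change was 0.28. Its neighbour Ddc, the enzyme that makes dopamine and serotonin, had 0.171 ± 0.151 against 0.427 ± 0.165 CPM (SD, n = 3 each) and was not tested.

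Gnas had 381, 378 and 299 CPM in the untreated tumours, in order, and 379, 361 and 290.0 in those given vorinostat. The lowest library of each group was tumour 3, and the log2 fold change was -0.04, with either sign over the other settings. The antisense Nespas had 0.305, 1.73 and 0.856 against 0.515, 0.368 and 1.61 CPM. Annotated exons of the 2 genes share 988 bases on opposite strands; the libraries are of a stranded kit, but the sources used here do not say whether the counting used strand, so reads of the pair may not be separated.

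The other members lay between. The bladder cancer related Blcap (7.27 ± 1.08 against 7.39 ± 0.744 CPM), H13 (25.8 ± 1.60 against 25.2 ± 1.35), Commd1 (17.3 ± 1.02 against 16.1 ± 2.99), the phosphatase Inpp5f (5.89 ± 0.497 against 6.11 ± 1.004) and the vesicle-tethering subunit Trappc9 (7.49 ± 1.54 against 7.11 ± 0.910) differed between group means by less than the larger SD of the pair (SD, n = 3 each). Mest, a hydrolase-like protein of mesoderm, had 2.62 ± 0.402 against 2.54 ± 0.594 CPM and Gatm, the first enzyme of creatine synthesis, 1.33 ± 0.631 against 0.992 ± 0.238 CPM. Annotated exons of Mest share 912 bases on the opposite strand with Copg2, at a mean of 22.2 CPM, so reads of that pair may not be separated either. Nnat, a small membrane protein of neurons that lies within an intron of Blcap, held 0, 11 and 0 reads against 6, 14 and 16. Zrsr1, a splicing factor gene within Commd1, had 0.334 ± 0.309 against 0.550 ± 0.318 CPM and shares 412 exon bases with it on the opposite strand. The potassium channel Kcnk9 held 1, 0 and 0 reads against 2, 7 and 1. Its vorinostat CPM lay above the untreated range, as for 6.53% of all genes tested, but it did not pass the filter. Its 10 vorinostat reads were 2.605 times background.

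RefSeq promoter windows matched 37 of the 46 members, 55 windows in all, with a median of 10 CpGs. The 33 windows of expressed members had a median of 13, the 17 of low members 8 and the 5 of silent members 3. These are descriptions, as several windows belong to 1 gene, and the silent class is 1 locus, where the window of Snurf is also a window of Snrpn. The letters TGCCGC, the core bound by the imprint-protecting factor ZFP57 when methylated, were searched on both strands and found in 6 of the 55 windows, 10.9%, against 8.68% of all windows. Of the windows printed above, those of Meg3 and Plagl1 held it. The SP1 letters GGGCGG were in 41.8% of member windows and 32.7% of all, among them those of Rasgrf1 and Plagl1. The CREB letters TGACGTCA were in 3.64% against 1.55%, the Meg3 and Peg3 windows.

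Further imprinted genes and the factors that keep imprints were read from lists drawn up in the same way. Of 53 further imprinted genes, 51 were in the files and 39 were tested, with 0 called by edgeR, 1 higher and 3 lower at an unadjusted p under 0.05 (10.3%, beside 6.27% of all genes), and a median log2 fold change of 0.10. The chromatin reader Jade1 had 15.9 ± 2.26 against 9.88 ± 2.70 CPM, the lactonase Pon2 22.6 ± 6.21 against 14.5 ± 2.49 and the sialic acid acetyltransferase Casd1 31.7 ± 3.20 against 24.0 ± 1.78 (SD, n = 3 each). Of 26 regulators of imprints, 22 were tested, with 0 called, 0 higher and 1 lower at an unadjusted p under 0.05 (4.55%), and a median of -0.01. The DNA methyltransferase Dnmt3a, which lays down imprints in germ cells, had 91.6 ± 30.1 against 61.1 ± 4.26 CPM, the untreated value being carried by tumour 3 at 125 CPM. The demethylating enzyme Tet1 had 11.5 ± 1.89 against 8.82 ± 1.23 CPM and the imprint-protecting Zfp445 8.84 ± 1.43 against 6.86 ± 0.666.

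Among 21 RAS genes and their exchange factors and brakes, all tested, 0 were called, 1 was higher and 2 lower at an unadjusted p under 0.05 (14.3%, beside 6.27% of all genes), and the median log2 fold change was -0.03. The exchange factor Rasgrp2 had 3.22 ± 0.832 CPM in untreated and 5.91 ± 3.11 in vorinostat tumours (SD, n = 3 each), the highest value again in vorinostat tumour 3 at 9.51. The brakes on RAS signalling Spred1 and Nf1 had 40.0 ± 5.71 against 29.9 ± 2.14 and 68.0 ± 10.2 against 53.1 ± 2.01 CPM. Over the 3 lists, DESeq2 and limma-voom also called 0 genes.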

How the data were processed

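Total RNA was sequenced from 3 untreated and 3 vorinostat-treated B16F10 tumours. The submitters' processing notes name Salmon, Trim Galore and FastQC as tools and GRCm38 as the build; the sources used here give no versions, annotation or strand setting. Per the file headers, every gene has an estimated count of reads, a TPM value and lengths. The estimated counts, as deposited, were rounded to whole numbers. The deposited TPM served in alternatives. Symbols came from GENCODE vM21 for 44118 of 44679 genes.

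Groups were compared with edgeR 4.0.16 (quasi-likelihood test, R 4.3.3) on all 6 libraries, with TMM scaling, filterByExpr by group and treatment as the single term. The p-values are two-sided with Benjamini-Hochberg adjustment over all 14776 genes tested, at a threshold of 0.05. CPM is TMM-scaled. Rasgrf1 stayed in the fit across all genes, but its p is not reported and it is left out of counts of members called. Alternatives were DESeq2-type size factors, no filter, 1 CPM in 3 libraries, DESeq2 1.42.0, limma-voom (3.58.1), an offset for effective length, limma after log2(TPM + 1) or log2(TPM + 0.1), mitochondrial and ribosomal RNA genes left out, and each library left out; leaving out tumour 3 of both groups was added after the data were seen. Where a setting moved the median of all genes by over 0.1, values are relative to that median.

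The members and lists were chosen with earlier results of these data known. All members are accounted for; values per library are given for Rasgrf1, for expressed members with an unadjusted p under 0.05 or ranges that do not overlap, and for the main loci; of each other list the 3 genes with the smallest p are named, and Rtl1, Begain and Dio3 are named for their place beside Dlk1. The background is the reads per kilobase of 1472 chemoreceptor genes in each library. Promoter sequences are RefSeq's (GRCm38.p6). On simulated counts for this comparison, 50% of 100 genes changed 2-fold and 83% of 100 changed 4-fold were recovered, with 10 false calls among 13888 genes tested. The changed genes all had a mean of 1 CPM or more, and no simulated library stood apart as tumour 3 of each group did. Recovery of lower genes, and with such libraries, was therefore not measured.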

Additional observations from a re-analysis of the deposited data

How the results depend on the processing

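No paired analysis was possible because the replicate numbers follow sample order and pair nothing. In the sample titles the number after G was 1, 1 and 2 for untreated and 3, 3 and 4 for vorinostat tumours 1, 2 and 3. Its meaning is not given, and as it never occurs in both groups it cannot be told apart from treatment. Tumour 3 of each group, the 2 libraries that stood apart, each has a number of its own. Over all genes, edgeR called 0; 156 were called with no filter, 11 by DESeq2, 41 on log2(TPM + 0.1), and 0 to 121 with 1 library left out, the highest without untreated tumour 2. Of the members other than Rasgrf1, 2 were called with no filter (Dlk1, Meg3), where 156 of 33106 genes were. In that setting 45 members were tested, Rasgrf1 included. Its standard errors were 0.53 for Dlk1 and 0.29 for Meg3, against 0.73 and 0.63 with the filter. With 1 library left out, 0 to 1 members were called. That was Dlk1 without untreated tumour 2, where 121 of 16438 genes were called and 37 members tested, Rasgrf1 included. The other lists had 1 call with no filter and 0 to 1 with 1 library left out (without untreated tumour 2), in both cases Xist, at 32.9 ± 22.2 CPM in untreated and 17.6 ± 3.03 in vorinostat tumours (SD, n = 3 each). Subtracting the chemoreceptor background moved the Rasgrf1 ratio to 27.5, which has no use as a fold because only 2.94 untreated reads were left. Low members numbered 10 with a limit of 0.5 CPM and 28 with 1 TPM, where 16 were expressed; silent members numbered 2 to 4 with 1 library left out, 4 without vorinostat tumour 2. Of the 33 tested members other than Rasgrf1, 22 turned sign in 1 setting or more, 15 of them with 1 library left out. Among the 10 whose log2 fold changes are printed, those were Gnas (0.22 on log2(TPM + 1), and -0.17 to 0.066 with 1 library left out, the highest without vorinostat tumour 3), Peg10 (-0.41 to 0.049 with 1 library left out, with 0.035 without vorinostat tumour 1 and the highest without untreated tumour 2), Grb10 (-0.11 on log2(TPM + 1)) and Kcnq1ot1 (-0.14 with no filter, -0.19 on log2(TPM + 1), -0.14 on log2(TPM + 0.1), -0.12 to 0.31 with 1 library left out, the lowest without vorinostat tumour 3, and -0.032 with tumour 3 of both groups left out); the cause was not tested. Depth limits the low members most: 3 reads correspond to 0.114 to 0.285 CPM.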
